A study of Homo sapiens with 12 samples.

Results

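The genes described here were 119 entries whose symbol is LINC followed by digits, the naming series for long intergenic noncoding RNAs that have no more specific name. They were chosen from a table of 54261 gene entries by symbol and by a sum of at least 120 raw counts over the 6 total RNA libraries. The rule itself does not use the difference between lines, but it was set with earlier results of these data known. Of the 119, 13 reached that sum mainly through a single line. The table held 935 such LINC entries. Of these, 479 had no count in any library and 337 had a sum of 1 to 119 counts. The sums of the 119 genes ran from 120 to 9311 counts, with a median of 381.

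HCT116oxR cells were compared with the parental line HCT116, which comes from a human colorectal carcinoma. HCT116oxR was derived from it by selection in oxaliplatin, a platinum drug that forms DNA adducts, at 0.1, 0.5, 1.0 and 2 µmol/L and then at 5 µmol/L for 1 year. Each line gave 3 total RNA and 3 small RNA libraries from cultures labelled as separate replicates. All came from 1 resistant line and its parent, so p-values speak to variation among cultures of these lines and leave variation among resistant lines unmeasured, and whether drug was present at harvest is not given in the sources used here. Total RNA libraries held 13558077, 13397807 and 12259870 counts in HCT116oxR and 13340564, 11950069 and 12407068 in HCT116.

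Long intergenic noncoding RNAs are transcribed from their own promoters between protein-coding genes and are often spliced and polyadenylated like messenger RNAs. Some act where they are made, on the transcription of a neighbouring gene, and others bind proteins or miRNAs elsewhere in the cell. Many are made in few cell types and at low levels, and a number of genes first named as LINC were later found to encode small proteins. The nuclear RNA exosome, Integrator and the nonsense-mediated decay factors are among the machinery that ends or degrades such transcripts.

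Promoter sequences are shown for genes among those with the largest changes, because they range from windows with no CG pair to a CpG-dense one. They come from RefSeq on GRCh38.p14 and cover 250 bases before to 50 bases after the annotated start on the strand of the gene. Promoter entries were found for 92 of the 119 genes. Capitals mark CG pairs. The window of LINC01338 was chr5:82859787-82860086 on the minus strand, that of LINC01031 chr1:193304495-193304794 on the plus strand and that of LINC00886 chr3:156817013-156817312 on the minus strand. The window of LINC00565 was chr13:113928942-113929241 and that of LINC01473 chr2:186086268-186086567, both on the minus strand.
LINC01338: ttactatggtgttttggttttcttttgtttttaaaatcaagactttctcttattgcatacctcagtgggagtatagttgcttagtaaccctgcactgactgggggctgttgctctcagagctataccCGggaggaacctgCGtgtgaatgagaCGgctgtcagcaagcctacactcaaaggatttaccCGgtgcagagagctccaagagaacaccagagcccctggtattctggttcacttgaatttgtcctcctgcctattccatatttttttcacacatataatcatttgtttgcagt
LINC01031: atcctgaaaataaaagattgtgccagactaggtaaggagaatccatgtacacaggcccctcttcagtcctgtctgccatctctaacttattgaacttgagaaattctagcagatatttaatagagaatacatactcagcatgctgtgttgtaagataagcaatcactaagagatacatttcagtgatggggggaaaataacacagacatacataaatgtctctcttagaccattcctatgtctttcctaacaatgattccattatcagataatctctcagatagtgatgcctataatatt
LINC00886: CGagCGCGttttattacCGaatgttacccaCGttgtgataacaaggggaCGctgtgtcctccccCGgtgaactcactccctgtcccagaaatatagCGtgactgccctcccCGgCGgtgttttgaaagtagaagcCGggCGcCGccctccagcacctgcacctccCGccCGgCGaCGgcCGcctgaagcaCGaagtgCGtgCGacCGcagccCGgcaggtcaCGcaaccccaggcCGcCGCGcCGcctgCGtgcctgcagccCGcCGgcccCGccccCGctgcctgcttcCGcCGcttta
LINC00565: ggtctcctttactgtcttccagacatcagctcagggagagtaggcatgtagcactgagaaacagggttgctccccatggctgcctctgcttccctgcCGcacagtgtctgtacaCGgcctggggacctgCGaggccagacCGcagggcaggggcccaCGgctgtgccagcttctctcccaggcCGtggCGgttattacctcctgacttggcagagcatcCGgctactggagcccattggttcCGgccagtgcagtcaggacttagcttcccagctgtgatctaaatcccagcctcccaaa
LINC01473: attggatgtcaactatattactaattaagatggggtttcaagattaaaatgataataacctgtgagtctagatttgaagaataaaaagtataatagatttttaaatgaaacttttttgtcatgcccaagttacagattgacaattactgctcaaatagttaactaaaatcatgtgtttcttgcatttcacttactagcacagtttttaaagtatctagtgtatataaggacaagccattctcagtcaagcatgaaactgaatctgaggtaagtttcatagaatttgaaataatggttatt

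The LINC00886 window held 35 CG pairs, that of LINC00565 held 9 and that of LINC01338 held 4, and those of LINC01031 and LINC01473 held 0. The median over the 92 LINC promoters was 12.5 CG pairs, beside 14 over all 27305 promoters in the reference, 22 over the protein-coding ones and 5 over the lncRNA ones. By outcome in the comparison of lines, the median was 14 in the 19 genes that were higher in HCT116oxR, 15 in the 21 that were lower and 11 in the 52 that did not pass the test. The TATA box letters TATAAA, searched on both strands, stood in 10 of the 92 LINC promoters and in 3264 of all 27305. The letters TGANTCA, the AP-1 consensus, were in 8.70% of the LINC promoters and 7.76% of all, and TGACNNNGC, the core bound by NRF2, in 19.6% and 13.6%. By outcome, TGACNNNGC was in 2 of the 19 promoters of higher genes, 4 of the 21 of lower genes and 12 of the 52 of genes not called. A match is a description of the letters only.

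Across the libraries, the 119 genes together took 0.130%, 0.133% and 0.132% of the counts in HCT116oxR, against 0.138%, 0.138% and 0.140% in HCT116. The shares of the lines did not overlap, and the HCT116oxR shares were the lower ones. In bulk RNA of this kind, fewer cells that make a transcript and less of it per cell cannot be told apart. Over the log2 CPM values of the 119 genes (counts scaled to library size, plus 1), libraries of the same line correlated at r = 0.963 to 0.974 and libraries of different lines at r = 0.867 to 0.894. The epithelial markers EPCAM, KRT8, KRT18 and KRT19 were present in both lines, at 180 ± 1.79 CPM for EPCAM in HCT116oxR and 151 ± 8.94 CPM in HCT116 (SD, n = 3 each). VIL1, CDX1 and LGR5, which also mark colorectal epithelium, had at most 2 counts in any library. The defining leukocyte markers PTPRC and CD3E had 0 counts in all 6 libraries. Among fibroblast markers, COL1A1 was detected at 43.3 ± 2.02 CPM in HCT116oxR and 53.5 ± 3.05 CPM in HCT116 (SD, n = 3 each) and COL1A2 at 4.10 ± 0.806 CPM in HCT116oxR and 5.95 ± 3.89 CPM in HCT116, whereas COL3A1 and DCN had at most 5 counts in a library. Among endothelial markers, VWF was at 2.72 ± 0.389 CPM in HCT116oxR and 1.63 ± 0.202 CPM in HCT116, whereas PECAM1 and CDH5 had at most 5 counts in a library. The leukocyte marker CD14 had at most 6 counts in a library. The part of other cell types in the results was not tested beyond these values.

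Between the lines, 51 of the 119 LINC genes passed the test at an adjusted p under 0.05 with edgeR's quasi-likelihood test, which is 42.9%, beside a background of 44.1% of all 17511 genes tested. In HCT116oxR, 24 were higher, 27 were lower and 68 did not pass. The corresponding backgrounds were 22.3% higher and 21.8% lower, and among genes with a count sum of 120 or more 47.8% were called. The median log2 fold change of the LINC genes, HCT116oxR over HCT116, was -0.10 with quartiles of -0.35 and 0.28, beside -0.00 for all genes tested. Their median standard error was 0.22, against 0.12 for all genes. The share of LINC genes called lay close to the background.

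Other gene classes at the same count minimum gave a range around that value. Protein-coding genes were called in 51.4% of 11921, and lncRNA genes with other kinds of names in 36.7% of 1175. These classes differ from the LINC genes in depth, with a median count sum of 2817 for the protein-coding genes and 326 for the other lncRNA genes. Calls of at least 2-fold numbered 13 among the LINC genes, which is 10.9%, beside 8.71% of all genes tested and 12.3% of the other lncRNA genes. Of these 13, 10 were higher in HCT116oxR (8.40%, background 4.88%) and 3 were lower (2.52%, background 3.83%). Among all genes with a count sum of 120 or more, calls of at least 2-fold made up 7.02%, with 3.95% higher and 3.07% lower. Of the 10 that were higher, 7 had under 60 counts in HCT116 and reached the count minimum mainly through HCT116oxR. These were LINC00698, LINC01405, LINC01338, LINC01031, LINC00640, LINC01315 and LINC00235. The share that was higher is set in part by that choice and nothing is read from it.

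In 55 LINC genes, or 46.2%, the libraries of the lines did not overlap, beside 50.5% of all genes tested. Of the 51 called genes, 46 had no overlap between lines and 5 overlapped. A further 9 genes without overlap did not pass the test. No LINC gene among the 119 was at 0 in any library. In 13 genes the sum of one line was under 60 counts, so that they reached the minimum mainly through the other line, 10 of them through HCT116oxR and 3 through HCT116. Of those 13, 8 were called, a count that such a choice raises by itself. Among the 106 genes with 60 or more counts in each line, 17 were higher and 26 were lower in HCT116oxR. Among all genes with a count sum of 120 or more, 24.0% were higher and 23.7% lower, and nothing is read from the split.

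**Figure D1:**
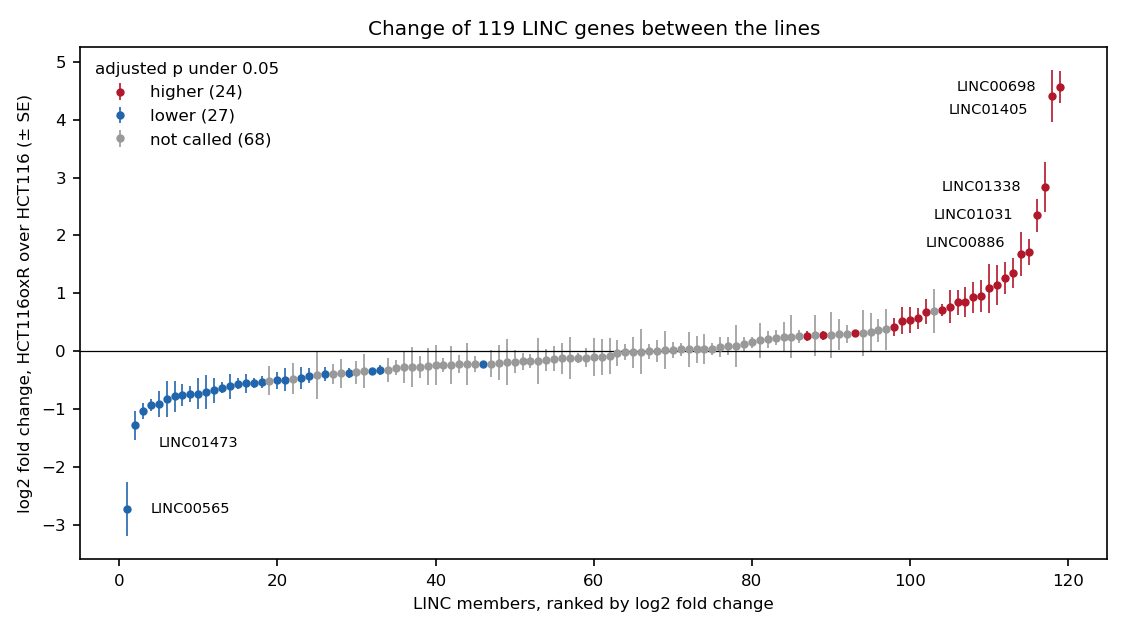
Log2 fold change, HCT116oxR over HCT116, of the 119 LINC genes in rank order, with bars for the standard error and colours for the outcome of edgeR's test. The 24 red genes were higher and the 27 blue genes lower in HCT116oxR; LINC00698 and LINC01405 stand above 4 and LINC00565 lies at -2.72.

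How small a change could be called depended on depth. Among the 35 genes with a sum of 120 to 239 counts, 9 were called, the median standard error was 0.35 and the smallest called change was 0.71 on the log2 scale. Of the 41 genes with 240 or more but under 600 counts, 21 were called, with a median standard error of 0.23 and a smallest called change of 0.46. Of the 43 genes with 600 counts or more, 21 were called at a median standard error of 0.13, down to a change of 0.22. Among the genes not called, log2 fold changes ran from -0.51 to 0.69, and the larger of these were not distinguishable from the spread between cultures at this depth.

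**Figure D2:**
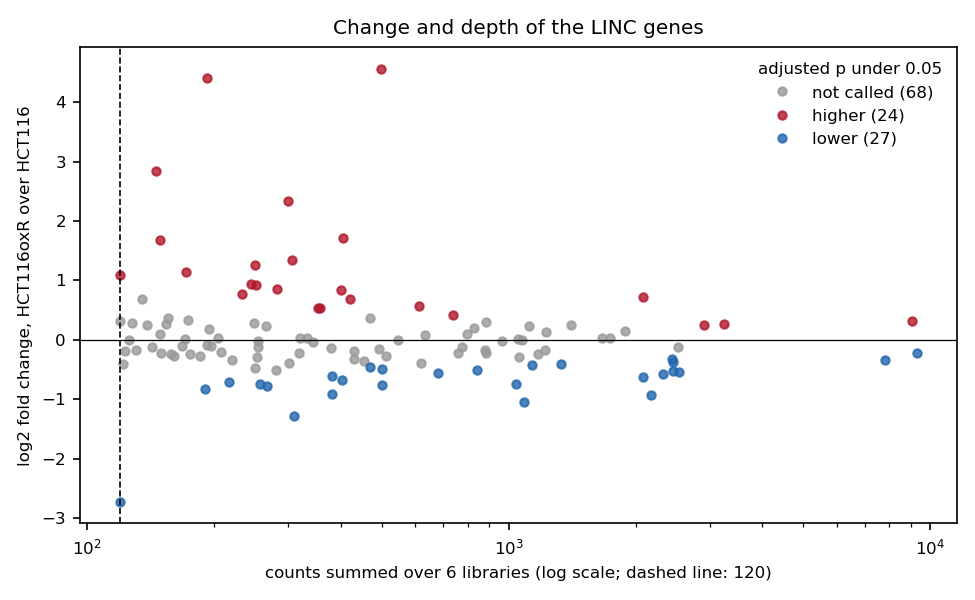
Log2 fold change, HCT116oxR over HCT116, against the counts of each LINC gene summed over 6 libraries on a log scale, coloured by outcome. The changes above 2 all belong to genes with sums under 600 counts, and the 2 genes with the most counts, LINC00641 and LINC00674, changed by 0.32 and -0.22.

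The genes next to the count minimum show what the choice rests on. LINC00235, LINC00565 and LINC00982 each had exactly 120 counts and were included, and LINC01024 with 116 and LINC00304 and LINC01301 with 109 each were not. LINC00235 had 25, 44 and 14 counts in HCT116oxR and 13, 5 and 19 in HCT116, and its libraries overlapped between lines. Its log2 fold change of 1.09 passed the test (adjusted p = 0.0274 by edgeR) but not without HCT116oxR replicate 2 (0.371) or without HCT116 replicate 1 (0.0573) or 2 (0.191), nor with DESeq2 (0.0823). LINC00304 had 11, 13 and 12 counts in HCT116oxR and 39, 15 and 19 in HCT116. Of the 39 LINC entries below the minimum that could still be tested, 11 were called (28.2%), 2 higher and 9 lower in HCT116oxR.

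The largest rise was in LINC00698, a lncRNA gene at chr3:63102688-63125062 that overlaps no other annotated gene. It had 175, 155 and 149 counts in HCT116oxR, against 11, 5 and 3 in HCT116. All HCT116oxR libraries stood far above the parental ones, which were near the limit of detection. The level was 12.2 ± 0.674 CPM in HCT116oxR and 0.498 ± 0.301 CPM in HCT116 (SD, n = 3 each), a log2 fold change of 4.57 ± 0.28 (SE) with an adjusted p of 3.45e-31 by edgeR. Without HCT116 replicate 1 the value was 5.17. Of 5 protein-coding genes tested within 1 Mb, 2 were higher and 1 was lower, with a median change of 0.09. PRICKLE2, a planar cell polarity gene 967 kb away that was singled out after its values were seen, had 54, 31 and 35 counts in HCT116oxR and 1, 0 and 1 in HCT116. Its CPM ratio was 57.7, with an exact 95% binomial interval of 15.6 to 482 that covers counting error only.

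LINC01405, now named VHRT and known from heart muscle cells, rose almost as far. It had 51, 58 and 76 counts in HCT116oxR, against 1, 6 and 1 in HCT116, so the lines did not overlap. The count minimum was reached mainly through HCT116oxR. The level was 4.76 ± 1.27 CPM in HCT116oxR and 0.220 ± 0.246 CPM in HCT116 (SD, n = 3 each). The log2 fold change was 4.41 ± 0.44 with an adjusted p of 4.50e-16 by edgeR, and it was 5.76 without HCT116 replicate 2. The gene lies at chr12:110936602-110937448, 15.2 kb from MYL2, which encodes the regulatory light chain of ventricular myosin. MYL2 moved the same way, with 26, 36 and 30 counts in HCT116oxR and 0, 1 and 2 in HCT116. The CPM ratio of MYL2 was 29.5, with an exact 95% binomial interval of 9.78 to 146 for counting error. Of the 22 protein-coding genes tested within 1 Mb of LINC01405, 3 were higher and 5 lower in HCT116oxR, with a median change of -0.03.

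LINC01338, whose promoter with 4 CG pairs is shown above, had 49, 32 and 48 counts in HCT116oxR and 7, 6 and 4 in HCT116. The lowest HCT116oxR library was above the highest parental one, but the gene reached the count minimum mainly through HCT116oxR. The log2 fold change was 2.84 ± 0.43 with an adjusted p of 9.33e-09 by edgeR. Of the 5 protein-coding genes tested within 1 Mb of it on chromosome 5, 2 were higher and 3 lower. TMEM167A, the nearest coding gene at 193 kb, fell by 0.57 ± 0.05 on the log2 scale. VCAN, which encodes the matrix proteoglycan versican and lies 612 kb away, had 472, 483 and 441 counts in HCT116oxR and 3507, 3053 and 3108 in HCT116, a log2 fold change of -2.86 ± 0.05. VCAN was named after its values were seen.

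LINC01031, on chromosome 1 with no CG pair in its promoter window, had 102, 86 and 65 counts in HCT116oxR and 15, 21 and 11 in HCT116. The lines were apart in every library, and the log2 fold change was 2.35 ± 0.28 with an adjusted p of 1.31e-12 by edgeR. Here the surroundings also rose, by less. Of 5 protein-coding genes tested within 1 Mb, 4 were higher and none was lower, with a median of 0.49, beside 22.3% higher among all genes tested. LINC01031 and LINC01032, described next, were named in part because the medians of their windows were among the largest. The coding gene nearest to LINC01031 was CDC73, a subunit of the PAF1 transcription elongation complex, at a log2 fold change of 0.57 ± 0.11. LINC01032, now named RGS2-AS1, lies 356 kb from LINC01031 and had 83, 62 and 70 counts in HCT116oxR and 46, 58 and 38 in HCT116. Its libraries overlapped between lines and its call at 0.53 ± 0.23 (adjusted p = 0.0488 by edgeR) was lost without HCT116oxR replicate 1 (0.178) or 3 (0.115), without HCT116 replicate 1 (0.136) or 3 (0.199), with DESeq2 (0.105) and with no filter on low counts (0.0815).

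LINC00886, whose CpG-dense promoter is printed above, rose with 99, 116 and 99 counts in HCT116oxR against 36, 32 and 23 in HCT116. The lines did not overlap, and the log2 fold change was 1.72 ± 0.22 (adjusted p = 5.08e-11 by edgeR). The gene overlaps the transcribed pseudogene PA2G4P4, which changed by 0.69 ± 0.12, and reads of the pair could not be separated where the use of strand is not given. LINC00640 had 39, 46 and 30 counts in HCT116oxR and 13, 9 and 12 in HCT116, a change of 1.68 ± 0.38. LINC01399 had 53, 67 and 59 counts in HCT116oxR and 26, 23 and 22 in HCT116, a change of 1.27 ± 0.28. Neither of these overlapped between lines. LINC00326 had 60, 66 and 38 counts in HCT116oxR and 34, 24 and 23 in HCT116 and changed by 0.95 ± 0.28, with the lowest HCT116oxR library just above the highest parental one.

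Among the genes that reached the count minimum, falls were smaller, apart from 1 gene. Of the 39 LINC entries tested below that minimum, 8 were called at least 2-fold lower in HCT116oxR and 2 at least 2-fold higher. The sizes of rises and falls in the list therefore depend in part on the minimum, and nothing is read from their difference. LINC00565, now named SWINGN, is known as an RNA that binds the SWI/SNF chromatin remodelling complex and acts on the GAS6 gene. It had 1, 5 and 10 counts in HCT116oxR, against 36, 23 and 45 in HCT116. All parental libraries were above all HCT116oxR ones, but the sum of 120 counts was the smallest that entered the list and it was reached through the parental line. The log2 fold change was -2.72 ± 0.47 with an adjusted p of 3.42e-07 by edgeR, and -3.58 without HCT116oxR replicate 3. It overlaps a protein-coding gene on the same strand, C13orf46, which fell by 0.84 ± 0.17 on the log2 scale, and reads could be shared between the 2. GAS6 itself, looked up after the value of LINC00565 was seen, was at 80.5 ± 2.97 CPM in HCT116oxR and 71.6 ± 6.78 CPM in HCT116 (SD, n = 3 each), a log2 fold change of 0.17 ± 0.06.

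LINC01021, now named PURPL, is an RNA described in colorectal cancer cells. It had 279, 231 and 258 counts in HCT116oxR, against 519, 467 and 418 in HCT116. The highest HCT116oxR library was well below the lowest parental one. The level was 19.6 ± 2.07 CPM in HCT116oxR and 37.4 ± 3.11 CPM in HCT116 (SD, n = 3 each), a log2 fold change of -0.93 ± 0.10 with an adjusted p of 2.62e-15 by edgeR, and the call held in all 12 refits. No tested protein-coding gene lies within 1 Mb of it.

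LINC01473, on chromosome 2, had 35, 30 and 28 counts in HCT116oxR and 60, 73 and 83 in HCT116, without overlap. It fell by 1.28 ± 0.25 on the log2 scale (adjusted p = 5.95e-06 by edgeR). All 3 protein-coding genes tested within 1 Mb were lower too, with a median of -1.65, beside 21.8% lower among all genes tested. LINC01473 was named in part because this median was among the largest in size, so nothing is read from the shared direction. ZC3H15, a zinc finger gene, had a log2 fold change of -1.65 ± 0.17, ITGAV, which encodes integrin alpha V, of -1.73 ± 0.04, and FAM171B of -1.33 ± 0.07. LINC01138, an RNA described in liver cancer cells, had 141, 113 and 112 counts in HCT116oxR and 257, 214 and 248 in HCT116, a change of -1.04 ± 0.13. It lies in a duplicated stretch of chromosome 1 and overlaps another lncRNA entry on the same strand that changed by -0.66 ± 0.10, so its counts are uncertain.

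The remaining genes with the largest falls changed by less than 2-fold and did not overlap between lines. LINC01089, described in breast cells as an RNA lowered by growth factor signalling, had 126, 140 and 133 counts in HCT116oxR and 227, 166 and 248 in HCT116, a log2 fold change of -0.75 ± 0.14. It overlaps SETD1B, a histone methyltransferase gene, at -0.15 ± 0.06. LINC00470, described in glioblastoma, had 59, 70 and 62 counts in HCT116oxR and 118, 92 and 99 in HCT116. LINC00176, now the protein-coding gene C20orf204, had 56, 38 and 42 counts in HCT116oxR and 81, 84 and 80 in HCT116. For LINC00562, LINC01219 and LINC01011 the fall was close to the threshold. LINC00562, at -0.82, gave an adjusted p of 0.0537 without HCT116oxR replicate 1, 0.0621 without HCT116oxR replicate 3 and 0.0805 without HCT116 replicate 2, by edgeR. LINC01219, at -0.78, gave 0.0705 without HCT116 replicate 2. LINC01011, at -0.74, did not pass without any 1 of 4 libraries, with adjusted p-values of 0.0924 and 0.0570 without HCT116oxR replicates 1 and 3 and 0.0532 and 0.0685 without HCT116 replicates 1 and 3.

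**Figure D3:**
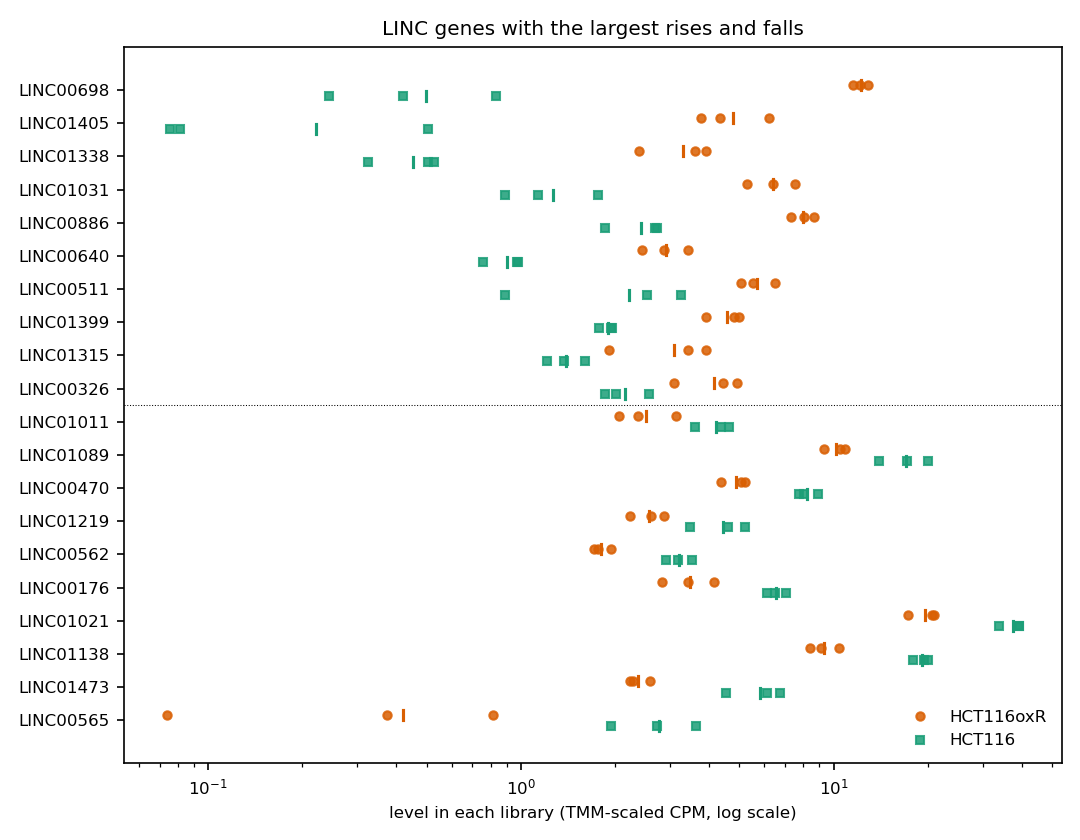
TMM-scaled CPM on a log scale in each library for the 10 LINC genes with the largest rises (above the dotted line) and the 10 with the largest falls (below it), HCT116oxR as circles above HCT116 as squares, with a tick at each mean of 3 libraries. No gene shown overlaps between lines; LINC00698 averaged 12.2 CPM in HCT116oxR and 0.498 CPM in HCT116.

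The genes that carried most counts changed little. The 6 with the highest mean CPM held 33.3% to 34.5% of all counts of the 119 genes in HCT116oxR libraries and 32.7% to 33.3% in HCT116 libraries. LINC00641 had 1775, 1756 and 1586 counts in HCT116oxR and 1349, 1256 and 1315 in HCT116 and rose by 0.32 ± 0.05 on the log2 scale. Its nearest coding gene at 2.25 kb, HNRNPC, which encodes a nuclear RNA-binding protein, rose by 0.40 ± 0.03. LINC00674 had 1549, 1442 and 1419 counts in HCT116oxR and 1719, 1591 and 1591 in HCT116 and changed by -0.22 ± 0.05. LINC01000 had 1203, 1233 and 1105 counts in HCT116oxR and 1491, 1316 and 1470 in HCT116 and changed by -0.34 ± 0.05. In each of these the lines did not overlap, so that a difference under 1.5-fold was larger than the spread between cultures. LINC00674 and LINC01000 overlap annotated pseudogenes, and reads of near-identical copies may be shared.

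LINC01578, now named CHASERR, lies just upstream of CHD2 and is known to hold the expression of that chromatin remodeller gene down. It had 634, 610 and 566 counts in HCT116oxR and 539, 407 and 486 in HCT116. It rose by 0.27 ± 0.08, with an adjusted p of 0.00220 by edgeR and 0.0527 without HCT116 replicate 2. CHD2, 1.58 kb away, was at 22.4 ± 3.43 CPM in HCT116oxR and 23.7 ± 0.650 CPM in HCT116 (SD, n = 3 each), with a log2 fold change of -0.08 ± 0.11 that did not pass. Of the 3 coding genes tested within 1 Mb, RGMA, a guidance molecule gene, rose by 1.34 ± 0.17 and SLCO3A1, an organic anion transporter gene, by 1.61 ± 0.55. LINC01578 was named in part because the median of these 3 genes was among the largest in size. SLCO3A1 had few counts, with 19, 15 and 18 in HCT116oxR and 1, 6 and 9 in HCT116 (adjusted p = 0.0111 by edgeR).

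LINC00894, now EOLA2-DT, starts 57 bases from EOLA2 on the opposite strand. It had 390, 328 and 341 counts in HCT116oxR and 492, 503 and 481 in HCT116, without overlap, and fell by 0.55 ± 0.09 on the log2 scale. EOLA2, listed under its older symbol CXorf40B, had 62, 63 and 49 counts in HCT116oxR and 104, 97 and 103 in HCT116 and changed by -0.87 ± 0.19. Of 10 LINC genes that start within 1 kb of a coding gene in this head-to-head arrangement, 9 had a tested partner and this was the only pair with both called. As background, 44.1% of all genes tested were called. Both genes were called for 30 of the 119 LINC genes with their nearest coding gene, and for 3200 of 11908 coding genes with theirs. With 9 pairs, nothing is read from the count.

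A list of 37 LINC RNAs described in tumour cells was set against the test, with 44.1% of all genes tested and 47.8% of those at the same count minimum called. Of the 17 that could be tested, 16 are among the 119 genes, 5 were higher, 3 were lower and 9 were not called, so that the 8 called lie near that background, and the median log2 fold change was 0.02 beside -0.10 for all 119. LINC00511, raised in many carcinomas, had 75, 68 and 80 counts in HCT116oxR and 43, 30 and 11 in HCT116, a change of 1.35 ± 0.27. LINC00673, which has the same reputation and lies 5.24 kb from it on chromosome 17, had 479, 441 and 394 counts in HCT116oxR and 263, 271 and 230 in HCT116, a change of 0.71 ± 0.10. Neither overlapped between lines. SOX9, a transcription factor gene of the intestinal stem cell compartment 277 kb from LINC00673, rose by 0.60 ± 0.04, and 4 of the 7 coding genes tested within 1 Mb of LINC00511 were higher and none lower.

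The other tumour-cell RNAs that rose were LINC01315, LINC00265 and LINC00659. LINC01315 had 26, 46 and 48 counts in HCT116oxR and 16, 19 and 17 in HCT116, a change of 1.14 ± 0.34, with an adjusted p of 0.0513 by edgeR without HCT116oxR replicate 3. LINC00265 had 73, 57 and 55 counts in HCT116oxR and 37, 27 and 34 in HCT116, a change of 0.85 ± 0.26. LINC00659, described in colon cancer, had 76, 107 and 80 counts in HCT116oxR and 69, 52 and 36 in HCT116. Its change of 0.68 ± 0.21 gave an adjusted p of 0.0668 without HCT116oxR replicate 2 and 0.0809 without HCT116 replicate 3.

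Besides PURPL, LINC00963 and LINC00152 fell. LINC00963, described in prostate cancer, had 313, 423 and 297 counts in HCT116oxR and 502, 388 and 538 in HCT116. The raw counts overlapped between lines, but the CPM values did not. It changed by -0.53 ± 0.10. LINC00152, now CYTOR, promotes growth in gastric and colon cancer cells. It had 201, 216 and 172 counts in HCT116oxR and 284, 248 and 212 in HCT116 and changed by -0.40 ± 0.12. Its near-identical copy MIR4435-2HG was at -0.30 ± 0.14 with an adjusted p of 0.0669 by edgeR, and reads could be split between the copies. Among those that did not pass, LINC00346 was at 0.21 ± 0.15, LINC00941 at 0.02 ± 0.14, LINC01234 at -0.12 ± 0.09 and LINC00662 at -0.28 ± 0.14. LINC00662 passed, at -0.44, without HCT116 replicate 1.

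Of the 119 genes, 9 are now annotated as protein-coding, 2 of which were higher, 4 lower and 3 not called. Among all genes tested, 22.3% were higher and 21.8% lower. In the list of 10 LINC symbols known to encode small proteins, 5 could be tested, 1 was higher and none was lower, with a median of -0.10. LINC00998, which encodes the small membrane protein SMIM30, had 548, 566 and 499 counts in HCT116oxR and 440, 435 and 413 in HCT116, and rose by 0.26 ± 0.08 without overlap. LINC01420, which encodes NoBody, a small protein of the mRNA decapping complex, was at 0.15 ± 0.10. LINC00493, which encodes mitochondrial SMIM26, was at -0.22 ± 0.15, and LINC00116, which encodes mitoregulin of the mitochondrial inner membrane, at -0.34 ± 0.29. None of those 3 passed. LINC00341 and LINC00950 have since been merged into SYNE3 and TMEM8B, and the table lists each apart from the larger gene. LINC00341 changed by 0.77 ± 0.29 beside 0.34 ± 0.16 for SYNE3, which did not pass, and LINC00950 by -0.61 ± 0.22 beside 0.08 ± 0.11 for TMEM8B, which did not pass either. The call of LINC00341 was lost without either HCT116oxR replicate 2 or 3 or HCT116 replicate 2 or 3 and with DESeq2 (adjusted p up to 0.168), and that of LINC00950 without HCT116oxR replicate 1 or HCT116 replicate 1 or 2 (up to 0.0799, by edgeR).

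The 119 genes lie on 22 chromosomes. Of these genes, 21 overlap a protein-coding gene, 98 do not, and 56 overlap no annotated gene at all. Among those still annotated as lncRNA and overlapping no coding gene, 19 were higher, 17 were lower and 55 did not pass. Where a coding gene overlaps, 3 were higher, 6 lower and 10 did not pass. Among all genes tested, 22.3% were higher and 21.8% lower, and nothing is read from the split. On chromosome 9, 4 of 6 LINC genes were lower and 0 higher, with a median of -0.54. The choice of this chromosome was not set in advance. On chromosome 18, 2 of 2 were lower, with a median of -0.59. On chromosome 14, 3 of 5 were higher and 0 lower, with a median of 0.32. The surroundings of the chromosome 9 genes differed. Of 33 coding genes tested within 1 Mb of LINC00963, 24 were lower and 2 higher, with a median of -0.35, and of 19 near LINC00094, 12 were lower and 1 higher, with a median of -0.36, beside 21.8% lower and 22.3% higher among all genes tested. Of 11 near LINC00476, 6 were lower and 2 higher, with a median of -0.20. Of 27 near LINC00950, placed by the gene it was merged into, 4 were lower and 5 higher, with a median of -0.01. LINC00094 fell by 0.57 ± 0.09 on the log2 scale and LINC01503, at -0.48 ± 0.27, did not pass. LINC01504, elsewhere on chromosome 9, had 21, 17 and 16 counts in HCT116oxR and 7, 29 and 32 in HCT116, and its change of -0.41 ± 0.41 did not pass. Its window held 6 coding genes, 4 lower and 1 higher, with a median of -0.57. LINC01504 was named because that median was among the largest in size.

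Where both a LINC gene and its nearest tested coding gene were called, the direction was the same in 24 of 30 pairs, or 80.0%. For the 25 such pairs in which the LINC gene overlaps no annotated protein-coding gene it was 19, or 76.0%. Coding genes with a count sum of 120 or more shared the direction of their nearest coding gene in 2115 of 3200 pairs, or 66.1%. Across the 119 genes, the change correlated with that of the nearest coding gene at r = 0.46 and rho = 0.32. Without LINC01405, whose neighbour is MYL2, r was 0.24 and rho 0.30 over 118 genes. With the median of all coding genes within 1 Mb the values were r = 0.19 and rho = 0.23 over 112 genes. These are descriptions across genes that share the same 6 libraries, and neighbouring genes are not independent points. LINC00115 and LINC01128 lie 0.069 kb apart on chromosome 1. LINC01128 fell by 0.38 ± 0.09 on the log2 scale and LINC00115, at -0.24 ± 0.32, did not pass.

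**Figure D4:**
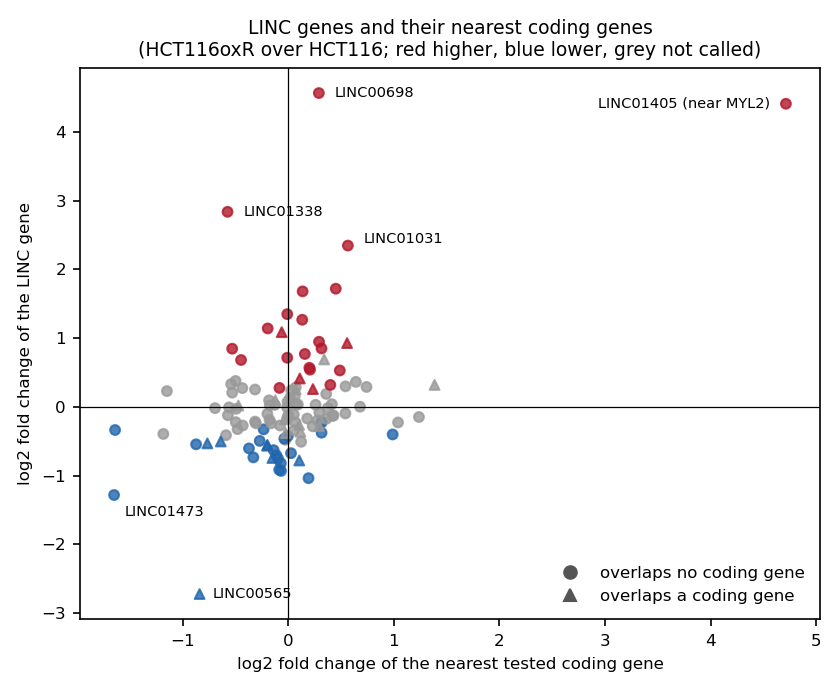
Log2 fold change of each of the 119 LINC genes (vertical) against that of its nearest tested protein-coding gene (horizontal), both HCT116oxR over HCT116, coloured by the outcome for the LINC gene. LINC01405 and MYL2 at the upper right changed by 4.41 and 4.71, and the other nearest coding genes lay between -1.65 and 1.39.

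LINC00969, now MIR570HG, was the only one of the 119 genes with an annotated miRNA locus inside it and a measured mature miRNA. Its mature products are shown with the seed, bases 2 to 8, in capitals, from RefSeq on GRCh38.p14. The 3p arm is at chr3:195699460-195699481 and the 5p arm at chr3:195699425-195699446, both on the plus strand.
miR-570-3p: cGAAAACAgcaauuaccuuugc
miR-570-5p: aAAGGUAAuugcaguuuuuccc
The small RNA libraries held 17125399 to 18147051 counts in HCT116oxR and 16089595 to 16294947 in HCT116. miR-570-3p had 17, 12 and 20 counts in HCT116oxR and 24, 29 and 21 in HCT116, and the lines did not overlap. Its log2 fold change of -0.77 ± 0.38 had an adjusted p of 0.118 by edgeR over 975 miRNAs, of which 44.7% were called, and did not pass. miR-570-5p had 2, 6 and 11 counts in HCT116oxR and 4, 1 and 3 in HCT116, too few to be tested. The host gene had 75, 96 and 103 counts in HCT116oxR and 127, 95 and 124 in HCT116, and its change of -0.39 ± 0.17 did not pass (adjusted p = 0.0537). The host did pass without HCT116oxR replicate 3, at -0.54, and without HCT116 replicate 2, at -0.49. The 2 arms have different seeds. The gene overlaps the pseudogene SDHAP2, which changed by -0.32 ± 0.08, and its counts may be shared with it.

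The machinery that ends and degrades noncoding transcripts was read in the same libraries. As background, 44.1% of all genes tested were called, 22.3% higher and 21.8% lower, and 51.4% of protein-coding genes at the count minimum. Of 21 tested genes of the nuclear RNA exosome and its adaptors, 1 was higher, 4 were lower and 16 were not called, and the median log2 fold change was -0.09. EXOSC2, a cap subunit of the exosome, was at 95.9 ± 4.61 CPM in HCT116oxR and 131 ± 2.85 CPM in HCT116 (SD, n = 3 each) and fell by 0.45 ± 0.05 on the log2 scale. DIS3, its catalytic subunit, fell by 0.18 ± 0.04, and MPHOSPH6, which attaches to the nuclear exosome, rose by 0.27 ± 0.07. Without HCT116 replicate 3, and with DESeq2, 2 exosome genes were lower. The number higher was 2 without HCT116 replicate 2, with scaling by library totals alone, with a filter at a CPM of 1 and with the replicate block. Of 27 genes of Integrator and transcription termination, 6 were higher, 7 were lower and 14 did not pass, with a median of 0.02. The Integrator subunit genes INTS8 at 0.52 ± 0.04 and INTS7 at -0.45 ± 0.05 moved in opposite directions. Of 12 nonsense-mediated decay genes, 1 was higher, 5 were lower and 6 did not pass, with a median of -0.13, and without HCT116 replicate 3 the number higher was 2. SMG6, the endonuclease of that pathway, fell to 25.4 ± 0.974 CPM in HCT116oxR, against 43.9 ± 2.92 CPM in HCT116 (SD, n = 3 each), a log2 fold change of -0.79 ± 0.09. DCP2, the decapping enzyme, rose by 0.57 ± 0.04. The part of these genes in the changes of the LINC RNAs was not tested.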

How the data were processed

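The authors deposited raw counts, per gene for total RNA and per mature miRNA for small RNA, from 3 libraries of each kind per line. Per the submitters' processing notes, reads were aligned to GRCh38 with HISAT2 (total RNA) and BWA (small RNA). Not given in the sources used here were aligner versions, the counting tool, the gene annotation, whether strand was used and how multiply matching reads were handled.

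The 119 genes, the gene lists and the tests were chosen with earlier results of these data known. The whole tables were fitted in R 4.3.3 with edgeR 4.0.16: filterByExpr (10 counts in a library of median size, 15 in all), TMM scaling, a robust quasi-likelihood F test, 2-sided, and Benjamini-Hochberg adjustment over all 17511 genes or 975 miRNAs, with 0.05 as the threshold. Fold changes (HCT116oxR over HCT116) are on the log2 scale with SE, computed as the absolute change over the square root of F, which is approximate at low counts. Levels are TMM-scaled CPM and are not per length, so levels of different genes were not compared. No tests were made on gene lists. The fit was run on simulated counts in which few genes changed, unlike in these data. That run does not measure error rates here.

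Symbols were matched to the RefSeq gene table of GRCh38.p14, 93 by current and 26 by older symbol, for positions, neighbours, promoters and miRNA loci. Named were the 10 largest rises and 10 largest falls without overlap between lines, the 6 genes with the highest CPM, called members of the lists with up to 4 that were not called, hosts of miRNAs, genes within 50 kb of each other, the genes next to the count minimum, genes apart from their neighbours or in windows with the largest medians, and genes set beside them. Alternatives were DESeq2 1.42.0, other scalings and filters, a replicate block, another count minimum, a test against a fold of 1.5 and leaving out each library. Replicate libraries of each line differed beyond sampling noise (lowest chi-square over degrees of freedom 2.21), so none was taken for a duplicate. Counting intervals do not cover PCR duplicates.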

Additional observations from a re-analysis of the deposited data

How the results depend on the processing

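The counts of 24 higher and 27 lower LINC genes stayed within 1.5 times under other scalings, filters, DESeq2 (19 higher, 24 lower), count minimums of 60 (26 and 34) and 240 (18 and 24), and without each library in turn (19 to 22 higher, 21 to 25 lower). Only the test against a fold of 1.5 moved them, to 8 higher and 4 lower, since it asks for more than a difference. Across 12 refits 33 genes were called in every one, 15 higher and 18 lower, and no called gene changed direction. The replicate numbers gave no sign of pairing: deviations of same-numbered total RNA libraries correlated at -0.007, -0.013 and -0.027, and at 0.079, -0.043 and -0.144 for small RNA. Those of different-numbered libraries ran from -0.024 to 0.036 for total RNA and from -0.135 to 0.171 for small RNA. Such values cannot show whether same-numbered cultures were handled together. With the replicate block 24 genes were higher and 26 lower, LINC00623 being lost. Among named genes, LINC00941, at 0.02, turned to -0.04 without HCT116oxR replicate 3 and ranged from -0.12 to 0.11 over the libraries left out, and LINC00467, at -0.10, turned to 0.12 without HCT116oxR replicate 1 and ranged from -0.26 to 0.21; neither was called and the cause was not tested. Depth limits the genes under 240 counts, where changes under 0.71 on the log2 scale were not called.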
